A study of Rattus norvegicus with 6 samples.

Results

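The genes of the oxygen-sensing pathway and of glycolysis were examined in rat aortic smooth muscle cells (RASMCs) challenged with 2 components of extracellular traps. The 35 genes were taken by symbol from a table of 22574 gene symbols, and all 35 were listed. They fall into 14 genes of the hypoxia-inducible factor (HIF) pathway and its targets and 21 genes of glucose metabolism. The RASMCs were primary cells of male Sprague-Dawley rats. In 3 libraries they had received citrullinated histone H3 (H3CIT, 0.03 μM) with double-stranded DNA (dsDNA, 300 ng/ml), and in 3 control libraries bovine serum albumin (BSA). The length of the exposure is not given in the sources used here. Wells of cells from the same rat served as replicates in vitro, so the p-values below measure the spread between wells and libraries, not between animals. No label names a change of oxygen in either group, and the aortas from which the cells came had been incubated under 95% O2 and 5% CO2.

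HIF is a pair of proteins, an oxygen-regulated alpha subunit and a constant beta subunit, that switches on genes for life at low oxygen. With oxygen present, prolyl hydroxylases of the EGLN family mark the alpha subunit, and the VHL protein then sends it for destruction, so the pathway is governed mostly at the level of protein stability rather than of mRNA. Its targets include the growth factor VEGFA, mitochondrial proteins of the BNIP3 family, collagen prolyl hydroxylases, the glucose transporter GLUT1 and most glycolytic enzymes. In vascular smooth muscle, glycolysis supplies energy and building blocks, and HIF-1 is also raised by inflammatory signals in many cell types.

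HIF binds DNA at a short core, written A or G followed by CGTG. The letters ACGTG, on either strand, were searched in RefSeq promoter windows of the GRCr8 assembly, which run from 250 bases before to 50 bases after a start site. Such windows were at hand for 32 of the 35 genes, all but Bnip3l, Ndrg1 and Pgk1. ACGTG was in 19 of 37 windows of these genes (51.4%) and in 19.3% of all 33469 windows. The core with a G in first place, GCGTG, was in 48.6% of the 37 windows and in 29.7% of all. A match describes letters only, and ACGTG overlaps the E-box CACGTG, which other factors bind and which was in 13.5% of the 37 windows against 6.42% of all. Stretches of 40 bases upstream of the start site are shown for Hif1a, the only called gene of the group, and for 6 genes known as HIF targets, with every ACGTG of either strand in capitals. Edn1, a gene of a surrounding list that is described at the end, is shown for comparison.
Hif1a, chr6:98359717-98359756, plus strand: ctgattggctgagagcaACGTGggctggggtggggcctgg
Ankrd37, chr16:53001467-53001506, plus strand: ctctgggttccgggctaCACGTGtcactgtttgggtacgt
Bnip3, chr1:203155038-203155077, minus strand: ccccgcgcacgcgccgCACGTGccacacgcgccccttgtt
P4ha2, chr10:38743836-38743875, plus strand: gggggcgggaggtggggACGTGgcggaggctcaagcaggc
Slc2a1, chr5:138002454-138002493, plus strand: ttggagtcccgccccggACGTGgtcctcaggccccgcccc
Pfkfb3, chr17:71944875-71944914, plus strand: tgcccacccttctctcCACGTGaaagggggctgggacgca
Ldha, chr1:106508002-106508041, plus strand: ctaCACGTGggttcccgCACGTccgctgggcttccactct
Edn1, chr17:22666866-22666905, minus strand: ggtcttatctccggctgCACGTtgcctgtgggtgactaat

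Totals per library were 17573905 to 18009324 counts with H3CIT+dsDNA and 18031326 to 18742395 in controls, so the groups differed slightly in depth without overlap. The smooth muscle identity was plain in both groups, with summed levels of 6 markers (Acta2, Tagln, Myh11, Cnn1, Smtn and Des) of 5597 to 6159 CPM (counts per 1000000 of the TMM-scaled library) after the challenge and 8352 to 9094 CPM in controls. Of the 6 markers, 4 were called lower, where 0.262% of all genes tested were. The changes were -66.4% for Cnn1, -38.0% for Acta2, -24.4% for Tagln and -13.3% for Smtn, while Myh11 and Des were not called. The endothelial list summed to 6.001 to 6.34 CPM against 6.52 to 7.45 CPM, with Kdr at 0 in 5 libraries. The macrophage and leukocyte list summed to 19.5 to 23.5 CPM against 22.3 to 22.9 CPM, mostly from Csf1r, with Ptprc at 0 in 5 libraries and Itgam in 4. The fibroblast list summed to 1.60 to 1.81 CPM against 0.969 to 1.85 CPM. None of the 32 genes of the module with a group mean of at least 20 counts had 3 consecutive whole numbers as its counts in either group. Of all genes with such a mean, 0.364% had them with H3CIT+dsDNA and 0.373% in controls. Such runs are so rare that their absence among 32 genes tells little.

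The log2 fold changes of the tested genes of the HIF pathway and of glycolysis lay between -0.18 and 0.29 after H3CIT+dsDNA. Of the 35 genes, 32 had enough counts to be tested, and 1, Hif1a, was called, meaning that its adjusted p in the quasi-likelihood test of edgeR was below 0.05. That is 3.12% of the genes tested here, against a background of 2.2% of the 12591 genes tested in all, 1.94% called higher and 0.262% called lower. The median log2 fold change was 0.01 over the 12 HIF pathway genes, of which 7 had a positive value, and -0.04 over the 20 glucose genes, of which 5 had a positive value. Over all genes tested the median was 0.00, and 49.4% had a positive value. The median size of the change, regardless of direction, was 0.12 in the HIF list, 0.04 in the glucose list and 0.08 over all genes. By this measure the HIF list changed more than all genes and the glucose list less, a difference that was not tested.

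The intervals of most of these genes stayed close to zero. The 95% interval of the log2 fold change lay within 0.5 of zero for 30 of the 32 genes, a limit of 1.41-fold. Of all genes tested, 76.5% had intervals within that limit. Meeting such a limit depends on the size of a change as well as on precision, which grows with counts. The genes of the module were not matched to the others by count, so these shares do not compare like with like. The exceptions among the 32 were Ankrd37 and Aldoc, with the lowest counts. For the other 30 genes the widest bounds were a change of -22.6%, for Egln3, and of 26.6%, for Adm. A tighter limit of 0.25 on the log2 scale, or 1.19-fold, held for 25 of the 32, where 50.1% of all genes tested met it. It held for 8 of the 12 HIF pathway genes and for 17 of the 20 glucose genes. The 3 challenged libraries lay wholly above the controls in CPM for 3 genes (Hif1a, Vegfa and Bnip3l) and wholly below for 4 (Egln1, Pfkp, Eno1 and Pkm). That is 9.38% and 12.5% of both lists together, where 10.7% and 8.43% of all genes tested did so. The pooled shares join unlike lists. Of the HIF pathway genes 25% lay wholly above and 8.33% wholly below, and of the glucose genes 0% and 15%. At an unadjusted p-value under 0.05 stood 7 genes, or 21.9%, against 13.9% of all genes tested. The 3 of the HIF list (25%) had higher values after the challenge and the 4 of the glucose list (20%) lower ones. This difference between the lists was not tested.

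**Figure D1:**
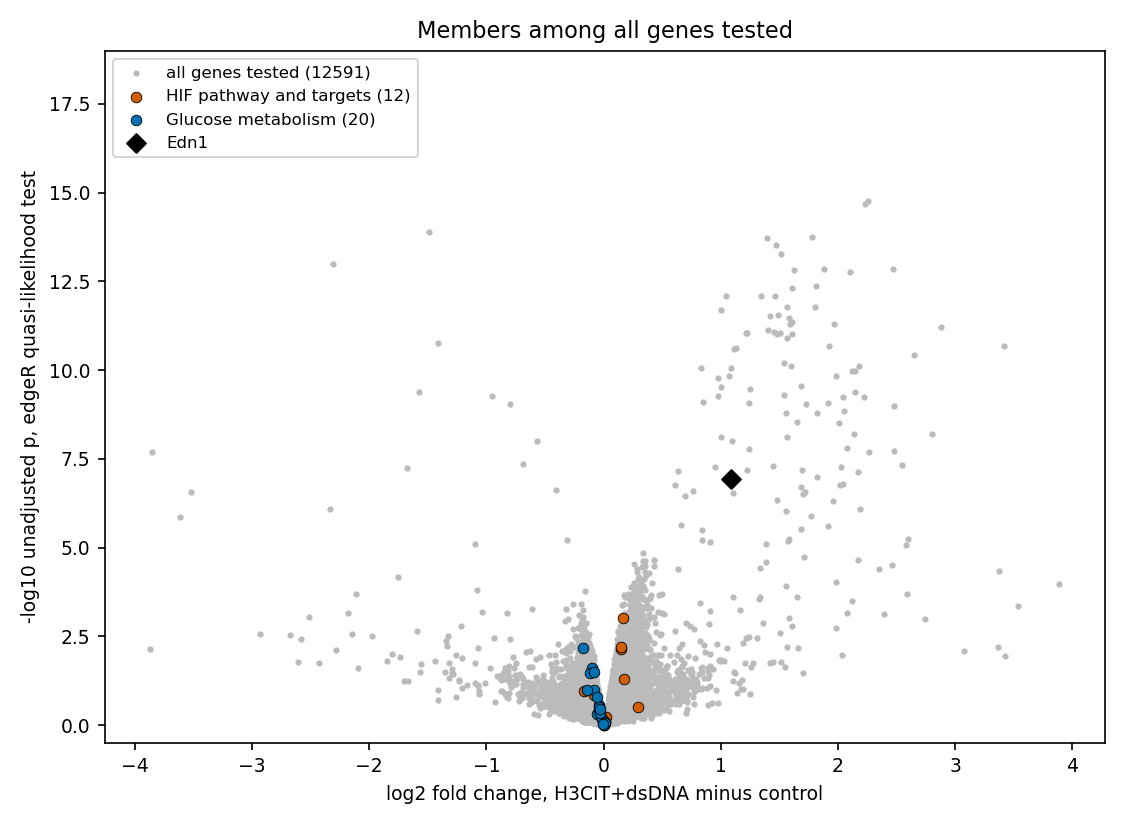
Each point is a gene, with the log2 fold change of H3CIT+dsDNA minus control on the horizontal axis and the -log10 unadjusted p-value of the edgeR test on the vertical axis. The 12 HIF pathway genes (orange) and 20 glucose genes (blue) sit at the foot of the plot, between -0.18 and 0.29, while Edn1 (black diamond), a gene outside both lists, lies at 1.08.

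Hif1a, the oxygen-regulated subunit of HIF-1, was the gene that passed the test. The challenged libraries held 2381, 2268 and 2355 counts and the controls 2046, 2218 and 2104. As CPM these were 130 ± 1.32 (SD, n = 3) and 116 ± 3.25 (SD, n = 3). All 3 challenged libraries lay above all 3 controls, and they lay closer together than the controls did. Its log2 fold change was 0.17 with a standard error of 0.04, a rise of 12.1% (95% interval 5.82% to 18.8%), at an adjusted p = 0.0453 from edgeR. The call was marginal. Among 15 other ways of fitting, the adjusted p-value ran from 0.0215 to 0.223 and 6 gave a call, while the log2 fold change stayed between 0.15 and 0.19. The call was lost in each of the 6 fits that left out one library, and under the replicate block the adjusted p was 0.0997. An exact permutation test of the CPM of this 1 gene, two-sided, gave p = 0.1, the smallest that 3 libraries against 3 allow. The total counts and the summed smooth muscle and endothelial markers also differed between the groups without overlap, as given above, and their part in this result was not tested.

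Epas1, which encodes HIF-2alpha, the alpha subunit prominent in endothelium, had almost no reads in these libraries. It had 1 count over the 3 challenged libraries and 2 over the 3 controls, too few to be tested, and a difference was not detectable at this depth.

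The oxygen sensors and the ubiquitin ligase subunit of the pathway did not pass the test. Egln1, encoding the main HIF prolyl hydroxylase PHD2, had 667, 655 and 642 counts against 715, 701 and 710 in controls. In CPM its groups did not overlap, but its log2 fold change was -0.09 (95% interval -0.21 to 0.03, adjusted p = 0.522 from edgeR). Egln3, encoding PHD3 and itself a strong HIF target, had 188 to 205 counts against 207 to 235, with overlap once scaled to CPM. The log2 fold change of Egln3 was -0.16 (interval -0.37 to 0.04, adjusted p = 0.479 from edgeR). Vhl, the substrate receptor, had a log2 fold change of -0.01 (interval -0.12 to 0.10).

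Among the target genes, the secreted factors had positive values that did not pass the test. Vegfa, the angiogenic growth factor, had 1435, 1347 and 1421 counts against 1314, 1312 and 1237 in controls. Its challenged libraries lay at 76.4 to 79.1 CPM and its controls at 66.6 to 73.6 CPM, without overlap. The log2 fold change of Vegfa was 0.15 (interval 0.05 to 0.25, adjusted p = 0.149 from edgeR, 0.0785 to 0.425 over the alternatives). Adm, the vasodilator peptide adrenomedullin, had 397, 389 and 362 counts against 365, 349 and 326. One challenged library of Adm fell inside the range of its controls in CPM, and the log2 fold change was 0.17 (interval 0.00 to 0.34, adjusted p = 0.360). The standard error was 0.05 for Vegfa and 0.08 for Adm.

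Of the mitochondrial targets, Bnip3l stood furthest from zero. Bnip3l, which encodes the mitophagy receptor NIX, had 999, 1001 and 971 counts against 907, 907 and 914 in controls, and its groups did not overlap in CPM. The log2 fold change of Bnip3l was 0.15 (interval 0.05 to 0.25, adjusted p = 0.142 from edgeR). Its relative Bnip3, the classical hypoxia target with CACGTG in the stretch shown above, had 1602 to 1684 counts against 1626 to 1694 and a log2 fold change of 0.01 (interval -0.09 to 0.11). The count ratio of Bnip3 to Bnip3l was 1.60 to 1.73 in challenged libraries and 1.78 to 1.87 in controls, lower in all 3 challenged libraries than in any control. Bnip3l alone already separated the groups, so the ratio is not a separate result. Higd1a, a small protein of the respiratory chain, had 1049 to 1199 counts against 1093 to 1265 and a log2 fold change of -0.04 (interval -0.17 to 0.08).

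The collagen prolyl 4-hydroxylase subunits, which modify procollagen and are induced by HIF, were among the most precisely measured of the list. P4ha1 had 3604 to 3806 counts against 3628 to 3878, with a log2 fold change of 0.02 (interval -0.05 to 0.09). P4ha2 had 3251 to 3375 counts against 3395 to 3471, with a log2 fold change of -0.02 (interval -0.09 to 0.06). Both intervals allow a change of less than 1.19-fold. Ankrd37, a gene that responds to HIF in many cell types, was near the lower limit of measurement. It had 27, 27 and 25 counts against 15, 27 and 24, and its log2 fold change was 0.29 (interval -0.31 to 0.89). Without control replicate 1, the low control, it was 0.09, and without control replicate 2 it was 0.46. Ndrg1, another standard hypoxia marker, had 2 to 5 counts in challenged libraries and 2 to 10 in controls and was not tested.

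**Figure D2:**
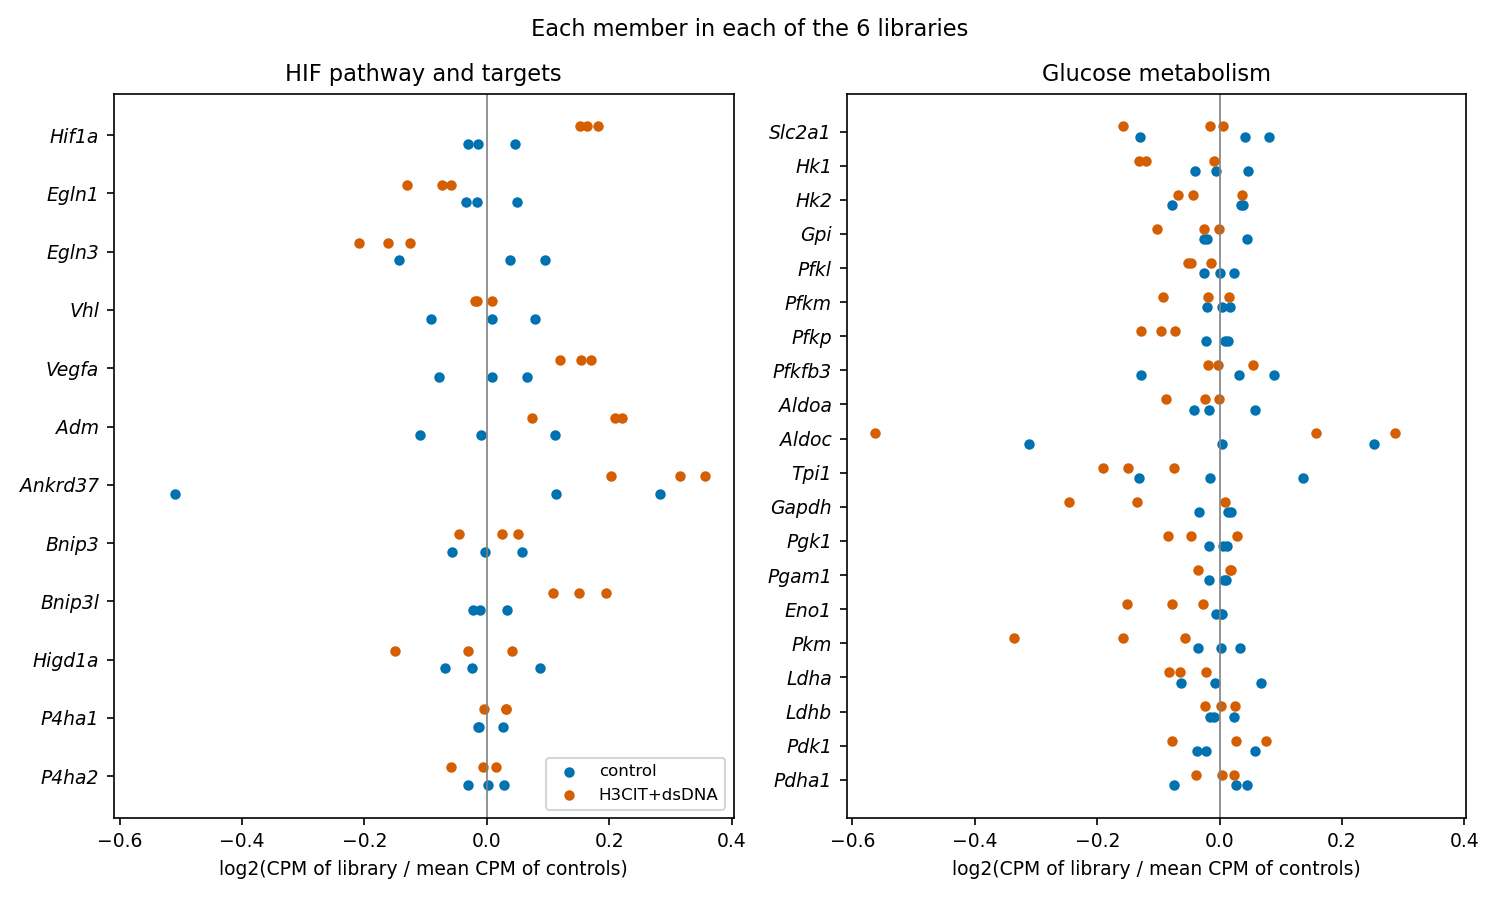
For each tested gene, points give the log2 ratio of a library's CPM to the mean CPM of the 3 controls (blue, control libraries, and orange, H3CIT+dsDNA libraries), with HIF pathway genes on the left and glucose genes on the right. The groups separate for Hif1a, Vegfa and Bnip3l on the upper side and for Egln1, Pfkp, Eno1 and Pkm on the lower side, and the wide scatter of Ankrd37 and Aldoc reflects their low counts.

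No gene of glucose uptake or of its first steps was called. Slc2a1, encoding the transporter GLUT1, had 441, 480 and 487 counts against 512, 518 and 460 in controls. Its lowest control lay among the challenged libraries, and its log2 fold change was -0.05 (interval -0.22 to 0.11). Hexokinase traps glucose in the cell as glucose 6-phosphate. The housekeeping hexokinase Hk1 had a log2 fold change of -0.09 (interval -0.19 to 0.02) and the HIF-responsive Hk2 one of -0.02 (interval -0.12 to 0.07). Gpi, the isomerase that follows, was at -0.04 (interval -0.12 to 0.04), with 9233 to 9907 counts against 9610 to 10464.

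At phosphofructokinase, the committed step of glycolysis, the platelet-type isoform was the one whose groups did not overlap. Pfkp had 1894, 1883 and 1972 counts against 2052, 2139 and 2087. Its log2 fold change was -0.10 (interval -0.18 to -0.02, unadjusted p = 0.0240), and its adjusted p from edgeR was 0.267. The liver-type Pfkl was at -0.04 (interval -0.12 to 0.05) and the muscle-type Pfkm at -0.03 (interval -0.12 to 0.06), each with overlapping groups. The count ratio of Pfkp to Pfkl was 0.972 to 0.997 in challenged libraries and 1.01 to 1.06 in controls, which did not overlap, while that of Pfkm to Pfkl did. Pfkp alone already separated the groups. Apart from Bnip3 to Bnip3l, every other ratio computed had overlapping groups, and no background share was taken for such ratios. Pfkfb3, the enzyme that makes the activator fructose 2,6-bisphosphate and a marker of glycolytic activation, had 1318, 1348 and 1335 counts against 1398, 1398 and 1251. The change of Pfkfb3 was 0.01 (interval -0.11 to 0.13).

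The later steps of the pathway held the values furthest below zero. Pkm, pyruvate kinase, had 26971, 28130 and 23867 counts against 29658, 30061 and 31515. The groups did not overlap, and H3CIT+dsDNA replicate 3 was the lowest. For Pkm the log2 fold change was -0.18 (interval -0.30 to -0.06, adjusted p = 0.144 from edgeR), or -0.11 without H3CIT+dsDNA replicate 3. Without H3CIT+dsDNA replicate 2 it was -0.25 with an adjusted p = 0.0285, the only fit of the 15 alternatives that called it.

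Gapdh, a glycolytic dehydrogenase and a common reference gene in RT-qPCR, had the same lowest library as Pkm. Its counts were 43310, 46507 and 40140 against 45760, 49332 and 49133, and in CPM one challenged library fell within the range of the controls. The coefficient of variation was 8.91% among challenged libraries and 1.97% among controls. The log2 fold change of Gapdh was -0.12 (interval -0.23 to -0.01, adjusted p = 0.310 from edgeR). It was -0.06 without H3CIT+dsDNA replicate 3 and -0.19 without H3CIT+dsDNA replicate 2, the latter with an adjusted p = 0.0319. RefSeq names 81 pseudogenes of Gapdh, 31 of Eno1, 30 of Ldha and 19 of Pkm in GRCr8, so the counts of these enzymes are uncertain to the extent that reads were shared with such copies, which was not measured. Of the 35 genes, 13 have such named copies.

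No other enzyme of this stretch was called. Eno1, enolase, had 16473, 17458 and 17353 counts against 18056, 18650 and 18761, without overlap. Its controls agreed to a coefficient of variation of 0.358%, and its log2 fold change was -0.08 (interval -0.16 to -0.01, adjusted p = 0.303 from edgeR). Tpi1, triose phosphate isomerase, was at -0.14 (interval -0.31 to 0.03) with 414 to 436 counts against 424 to 531. Aldoa, the main muscle aldolase, was at -0.04 (interval -0.11 to 0.04). Pgk1, phosphoglycerate kinase, a textbook HIF target, was at -0.03 (interval -0.11 to 0.04). Pgam1, phosphoglycerate mutase, was at 0.00 (interval -0.07 to 0.07), the narrowest interval of the 32 genes. Aldoc, the brain-type aldolase, had 35 to 63 counts against 41 to 63, and its interval of -0.54 to 0.55 left changes of up to about that size undetected at this depth.

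At the end of glycolysis, lactate dehydrogenase converts pyruvate to lactate, and pyruvate dehydrogenase passes it to the mitochondria. Ldha, with several matches in the stretch shown above, had 15534, 15749 and 15749 counts against 15503, 16737 and 17645. Its lowest library was a control by count and a challenged library by CPM, and its log2 fold change was -0.06 (interval -0.14 to 0.03). Ldhb was at 0.00 (interval -0.07 to 0.07). The count ratio of Ldha to Ldhb was 4.26 ± 0.0298 (SD, n = 3) in challenged libraries and 4.44 ± 0.25 (SD, n = 3) in controls, with overlap. Pdk1, the kinase that shuts pyruvate dehydrogenase under HIF control, had a change of 0.01 (interval -0.14 to 0.16), and Pdha1, the subunit it phosphorylates, of 0.00 (interval -0.10 to 0.09). Slc16a3, which encodes the lactate exporter MCT4, had 4 counts over the challenged libraries and 5 over the controls and was not tested.

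**Figure D3:**
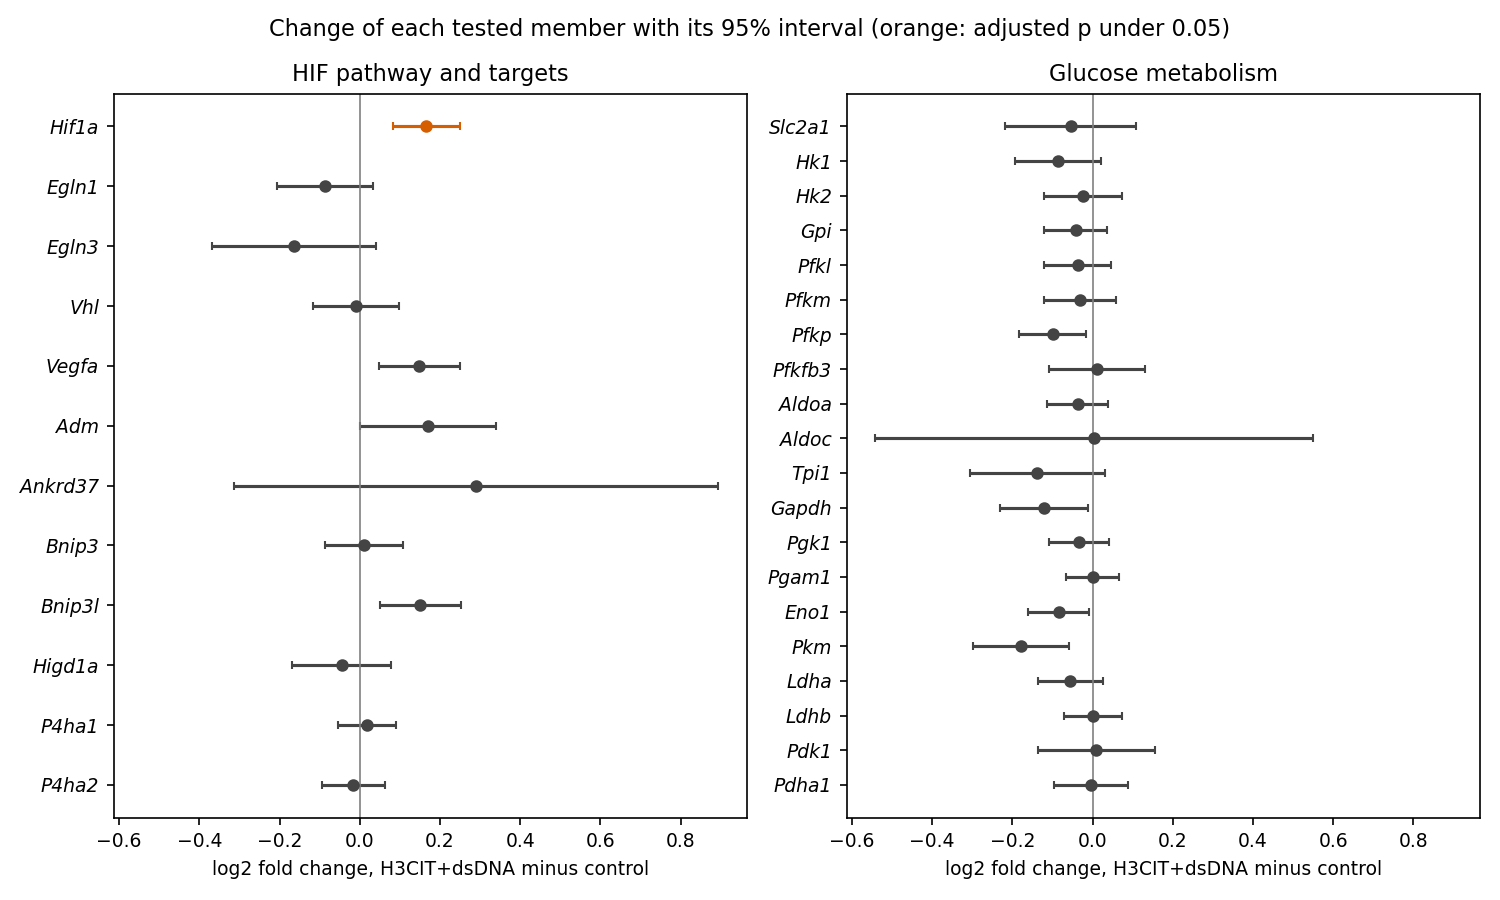
Points are log2 fold changes of H3CIT+dsDNA minus control and bars their 95% intervals from the edgeR fit, for 12 HIF pathway genes (left) and 20 glucose genes (right), with the called gene in orange. Hif1a stands at 0.17, the intervals of Vegfa, Bnip3l, Pfkp, Gapdh, Eno1 and Pkm also exclude zero before adjustment, and those of Ankrd37 and Aldoc are the widest.

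Seen by library, the medians of the glucose list were lowest in 1 challenged library. The median over the 20 genes, as log2 CPM minus the mean of the controls, was -0.08, -0.02 and -0.01 in H3CIT+dsDNA replicates 1, 2 and 3 and between -0.01 and 0.00 in the controls. Of the 3 challenged libraries, replicate 1 had the lowest CPM for 13 of the 20 genes, replicate 2 for 2 and replicate 3 for 5, the latter being Aldoc, Gapdh, Pkm, Pdk1 and Pdha1. Such counts were not taken over all genes tested, so whether they are particular to this list is not known. The medians of the HIF list were 0.02, 0.03 and 0.04 in the challenged libraries, replicate 1 again the lowest, and -0.02 to 0.03 in controls. The hexokinase ratio Hk2 to Hk1 was 2.48 to 2.54 after the challenge and 2.29 to 2.53 in controls, and that of P4ha1 to P4ha2 was 1.08 to 1.17 and 1.07 to 1.12, both with overlapping groups.

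Values were set beside the presence of the core in a promoter window, as a description. The 19 tested genes with ACGTG in a window had a median log2 fold change of -0.03 (range -0.12 to 0.29) and 1 call, Hif1a itself. Of all 2494 genes tested with ACGTG in a window, 67 were called, with a median of -0.0029. The 11 without it had a median of -0.02 (range -0.18 to 0.17) and 0 calls. The 6 targets whose stretches are printed above had values of 0.29 (Ankrd37), 0.01 (Bnip3), -0.02 (P4ha2), -0.05 (Slc2a1), 0.01 (Pfkfb3) and -0.06 (Ldha), and none of the 6 was called. They were picked from the genes with ACGTG upstream, and others, such as Hk1, Aldoa and Gapdh, were not printed. With 2.2% of all genes tested called, 0 calls among 6 or 11 genes tells little.

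Genes of the surrounding pathways were taken as 6 further lists of 84 genes, of which 71 were tested and 1, or 1.41%, was called, against 2.2% of all genes tested. Other HIF regulators (partners, coactivators, the asparagine hydroxylase and ligase subunits) gave 0 calls among 11 tested, with a median of -0.03. The largest values there were -0.20 for Eloc, an elongin subunit of the VHL ligase, 0.18 for the coactivator Crebbp and 0.17 for its relative Ep300. Elongin genes are listed in the table under the older symbols Tceb1 and Tceb2. Arnt, the beta subunit of HIF, which was named here after its values were seen, had a log2 fold change of 0.13 (interval -0.01 to 0.27).

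Of 24 other hypoxia-response genes tested, Edn1 was called. Edn1, which encodes the vasoconstrictor endothelin-1 and responds to HIF, to inflammatory factors and to much else, had 761, 727 and 771 counts against 430, 324 and 330 in controls. The groups were far apart, at 41.9 ± 0.612 CPM (SD, n = 3) and 19.8 ± 3.74 CPM (SD, n = 3), with control replicate 1 above the other controls. The log2 fold change of Edn1 was 1.08 with a standard error of 0.10, an increase of 112% with an interval of 82.3% to 147% and an adjusted p = 1.57e-05 from edgeR. It was called under all 15 alternatives. An exact permutation test of its CPM gave p = 0.1, again the smallest possible. Endothelial cells also make endothelin-1. The 5 endothelial markers together had 107 to 115 counts after the challenge and 121 to 138 in controls, mostly of Cdh5, with 3 of them tested and 0 called, and their part in the Edn1 result was not tested. The gene next nearest to a call was Lox, a collagen cross-linking enzyme named after its values were seen, at 0.15 (adjusted p = 0.0748 from edgeR). The rest of this list, among them Car9, Ddit4, Hilpda and Hmox1, named after their values were seen, had values between -0.38 and 0.19, with the largest negative ones, -0.38 for Stc2 and -0.36 for Ak4, at no more than 19 counts in a library.

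No gene was called in the 4 lists around glycolysis. Other glycolysis genes (15 tested, median 0.05) had their largest values in Slc2a3 at 0.52, Slc2a4 at -0.27 and Pfkfb4 at -0.25. Slc2a3, the transporter GLUT3, had 67, 24 and 22 counts against 25, 26 and 29, so that 1 library made its value. Genes of pyruvate entry into mitochondria (11 tested, median -0.03) ranged up to 0.19 for the phosphatase Pdp2, 0.14 for the kinase Pdk3 and 0.13 for Dld. The pentose phosphate pathway (7 tested, median -0.04) was furthest from zero in Pgls at -0.09, Tkt at -0.08 and Pgd at -0.07, with all 7 intervals within 0.25 of zero. Gluconeogenesis left 3 genes to test (median -0.11), with G6pc at -0.37, G6pc3 at -0.11 and Pck2 at -0.03.

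**Figure D4:**
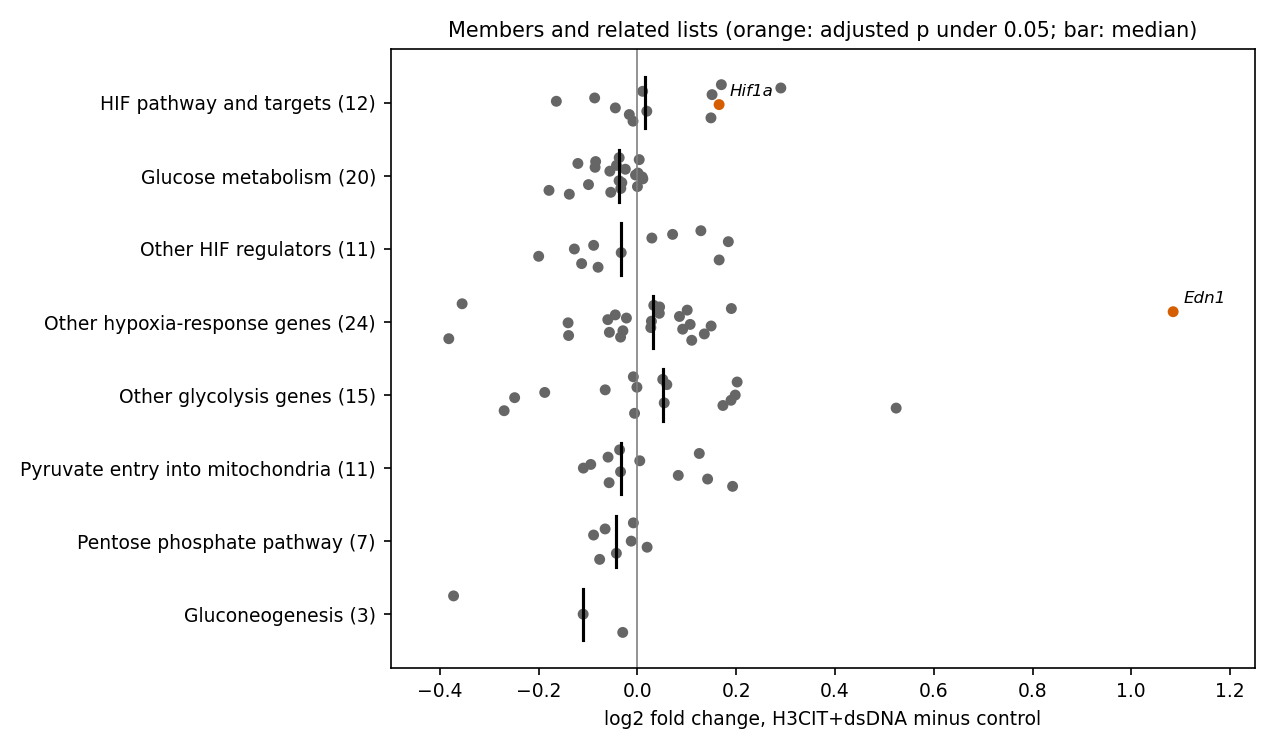
Each point is the log2 fold change of a tested gene, H3CIT+dsDNA minus control, in the 2 lists of the module and the 6 surrounding lists, with the number tested in brackets, the list median as a bar and called genes in orange. Vertical offsets within a list only separate the points. Medians run from -0.11 to 0.05, and the 2 called genes are Hif1a at 0.17 and Edn1 at 1.08.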

How the data were processed

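RNA was sequenced from 3 H3CIT+dsDNA and 3 control cultures of RASMCs, grouped by sample title. The authors made stranded mRNA libraries, mapped reads to Rnor6.0 with TopHat2 2.1.1 and counted reads per gene with HTSeq, and the deposited values are raw counts for 22574 symbols. Notes of the submitters also name Cufflinks 2.2.1 and Cuffdiff. The strand setting of the counting is not given in the sources used here, so overlapping and antisense genes can share reads.

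Here, filterByExpr kept 12591 genes, TMM set the scaling, and edgeR 4.0.16 (R 4.3.3) compared the groups by its two-sided quasi-likelihood test. P-values were adjusted over all those genes by the Benjamini-Hochberg method. The log2 fold changes are unshrunken coefficients, and the standard error is their size over the square root of the F statistic, from which 95% intervals were taken. CPM are counts per 1000000 of the TMM-scaled library size. Intervals cover the spread between these libraries. DESeq2 1.42.0, the tool of the study, was an alternative, as were limma-voom (limma 3.58.1), other scalings and filters, robust dispersion, a fit with the replicate block and fits that left out 1 library.

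The genes, lists and tests were chosen with earlier results of these data known. Named genes are all 35 of the module and, from each other list, the called genes and up to 3 of the largest change; Arnt, Lox, Car9, Ddit4, Hilpda and Hmox1 were added after their values were seen. The edgeR fit was also checked on simulated counts with known changes. Those changes were larger than that of any gene of the module, so the check does not cover changes as small as these. Sequences are from RefSeq, GRCr8. No coordinates of Rnor6.0 and no gene lengths were used, so levels are not compared between single genes. The sums of the marker lists were set side by side without a correction for gene length.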

Additional observations from a re-analysis of the deposited data

How the results depend on the processing

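The number of genes called over the whole table was 277, and 212 with a replicate block. Among the 6 fits without one library it ran from 164, without H3CIT+dsDNA replicate 1, to 357, without control replicate 3, and was 184 without control replicate 1. Among the 9 alternatives with all libraries it ran from 212 to 376, the latter with robust dispersion. Replicate numbers were not treated as pairs. Libraries of the same number deviated from their group means with correlations of -0.0458, 0.00452 and 0.0355. Of the HIF pathway genes 1 was called, and 0 with DESeq2's size factors, with upper-quartile scaling, with the replicate block and in each of the 6 fits without one library (0 to 0). The adjusted p of Hif1a was then 0.0510, 0.0916, 0.0997 and 0.0728 to 0.223; fits without a library have fewer samples, and the cause of the others was not tested. Of the glucose genes 0 were called, with 4 at an unadjusted p-value under 0.05, 0 with DESeq2 and limma-voom, and 0 to 2 with one library left out. The 2, Gapdh and Pkm, came without H3CIT+dsDNA replicate 2; the cause was not tested. The median of the HIF list, 0.01, was 0.0342 with library size alone, which moved the median of all genes to 0.02, and -0.0022 with upper-quartile scaling, and that of the glucose list stayed between -0.06 and -0.02. Positive values in the glucose list, 5 of 20 in the main fit, numbered 0 with upper-quartile scaling, 3 with DESeq2 and 6 with library size alone. Over 480 values of the 32 genes, 469 kept their side of the threshold, 9 lost a call, all Hif1a, and 2 gained one. Among the 469 were 44 values, of 10 uncalled genes near zero, that changed sign. Depth limits Epas1, Ndrg1 and Slc16a3, which were not tested, and Ankrd37 and Aldoc.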
